A study of Homo sapiens with 12 samples.

Results

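The squamous lineage transcription factor genes described here are TP63, SOX2, KLF4, KLF5, GRHL2, GRHL3, OVOL1, TFAP2A, ZNF750 and PITX1, chosen by name from a table of 38516 genes, and all 10 were found in it. RNA sequencing had been done on KYSE150 and KYSE510, established human lines of esophageal squamous cell carcinoma (ESCC) grown in RPMI-1640 medium with fetal bovine serum. In each line, libraries labelled control were compared with libraries in which HCP5, a long non-coding RNA gene, was silenced. The 4 groups held 3 libraries each, 12 in all. Titles of control libraries start with shc and those of silenced libraries with sh4, abbreviations that are not explained. The reagents are not given in the sources used here, the silenced libraries carry 1 construct label, and each line stands for the tumour of 1 person. The labels do not say whether replicates were separate cultures, so p-values measure only the spread between these libraries.

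TP63 encodes p63, a member of the p53 family that maintains the basal layer of stratified epithelia and switches on basal keratins, hemidesmosome genes and laminins. SOX2 is a stem cell factor of the developing foregut that shares many sites with p63 in squamous carcinoma, where the chromosome arm carrying both genes is often gained. KLF5 promotes growth of basal cells, and KLF4 drives exit from the cycle and differentiation. GRHL2 and GRHL3 are grainyhead-like factors that control junction and barrier genes, OVOL1 is a zinc finger repressor of mesenchymal genes, and TFAP2A (AP-2 alpha) acts in keratinocytes and neural crest. ZNF750 is induced by p63 and switches on late differentiation, and PITX1 is a homeobox factor of limb and oral epithelium.

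The libraries held 20035025 to 28202422 reads assigned to genes, and every silenced KYSE150 library was deeper than every KYSE150 control. Values are RPKM (reads divided by exon length and library depth), so genes can be set side by side. Differences in the make-up of libraries are not corrected, so fits with other scalings are given as well. HCP5 itself stood at 0.745 to 0.786 RPKM in KYSE150 controls against 0.315 to 0.579 after silencing. In KYSE510 it stood at 0.914 to 1.85 against 0.505 to 0.951, and these ranges overlapped. By their highest library in a group, 10 of 11 squamous cell markers reached 0.5 RPKM in both KYSE150 groups and 9 in both KYSE510 groups. Of the 5 neuroendocrine markers 2 were found in the table, and of the 8 leukocyte markers 7. Among the fibroblast, endothelial, leukocyte and neuroendocrine markers found, CD68, COL1A1 and CDH5 reached 0.5 RPKM in any group, the last pair in KYSE510 only. PDGFRA and MS4A1 were at 0 in every library. KYSE150 control replicate 3 stood apart from the other controls of its line. KRT14, for example, was 81.2 RPKM there against 28.5 and 23.0 RPKM. Silenced replicate 3 stood apart likewise, at 369 RPKM for KRT14 against 127 and 91.2. Results for KYSE150 are also given without control replicate 3, with silenced replicate 3 kept. That fit is unbalanced and no cleaner measure. In KYSE150 1287 genes passed in it against 89 with all libraries, and 15 without silenced replicate 3.

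Promoter sequence, in windows of 300 bases that lie mostly upstream of a start site, was found in a RefSeq table (build GRCh38.p14) for 7 of the 10 genes, in 10 windows. The windows of TP63, KLF5 and KLF4 are shown because these genes had higher values in every silenced KYSE150 library than in any control, and that of SOX2 because its mean was 54.9 times higher in KYSE510 controls than in KYSE150 controls. They lie at chr3:189631139-189631438 on the plus strand for TP63, at chr13:73054726-73055025 and chr13:73058755-73059054 on the plus strand for KLF5, at chr9:107489720-107490019 on the minus strand for KLF4 and at chr3:181711675-181711974 on the plus strand for SOX2. Capitals mark a match to the AP-2 word.
TP63: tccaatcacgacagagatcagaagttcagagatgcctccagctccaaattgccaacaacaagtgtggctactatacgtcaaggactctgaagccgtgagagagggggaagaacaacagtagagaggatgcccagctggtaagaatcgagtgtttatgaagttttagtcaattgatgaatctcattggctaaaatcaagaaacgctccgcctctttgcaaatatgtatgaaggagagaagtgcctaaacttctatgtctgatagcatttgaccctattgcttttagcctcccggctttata
KLF5 upstream start: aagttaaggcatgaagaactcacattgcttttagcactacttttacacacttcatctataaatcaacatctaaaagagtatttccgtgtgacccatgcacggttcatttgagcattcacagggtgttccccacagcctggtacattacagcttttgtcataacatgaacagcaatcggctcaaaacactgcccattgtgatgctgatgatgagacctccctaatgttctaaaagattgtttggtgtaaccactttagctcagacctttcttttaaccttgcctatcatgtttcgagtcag
KLF5 downstream start: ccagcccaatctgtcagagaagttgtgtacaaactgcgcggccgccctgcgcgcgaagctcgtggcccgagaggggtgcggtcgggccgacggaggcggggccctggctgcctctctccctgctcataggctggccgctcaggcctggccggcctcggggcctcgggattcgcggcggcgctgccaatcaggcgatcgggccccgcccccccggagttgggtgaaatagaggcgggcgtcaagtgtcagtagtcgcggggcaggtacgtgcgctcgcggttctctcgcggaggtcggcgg
KLF4: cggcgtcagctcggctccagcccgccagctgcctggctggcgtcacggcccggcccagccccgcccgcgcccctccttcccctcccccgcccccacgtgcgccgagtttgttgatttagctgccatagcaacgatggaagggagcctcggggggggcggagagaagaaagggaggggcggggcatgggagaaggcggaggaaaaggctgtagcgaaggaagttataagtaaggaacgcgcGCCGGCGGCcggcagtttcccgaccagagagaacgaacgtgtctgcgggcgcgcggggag
SOX2: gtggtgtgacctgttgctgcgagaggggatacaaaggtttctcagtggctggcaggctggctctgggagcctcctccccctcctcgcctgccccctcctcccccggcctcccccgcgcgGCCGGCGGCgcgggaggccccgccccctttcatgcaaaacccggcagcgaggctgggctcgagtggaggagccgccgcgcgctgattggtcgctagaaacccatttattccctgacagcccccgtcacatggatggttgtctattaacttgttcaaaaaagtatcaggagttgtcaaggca

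The TP63 window was 43.7% G or C and the upstream KLF5 window 40.7%, below the median of 58.7% over 35116 promoters in the table. The downstream KLF5 window was 71.3%, KLF4 69.0% and SOX2 63.3%. Words bound by these families of factors were searched on both strands. The AP-2 word GCCNNNGGC occurred in 3 of the 10 windows, as GCCGGCGGC in SOX2 and KLF4 and as GCCATAGGC in the downstream window of GRHL3, and in 23.2% of all promoters. The grainyhead word AACCGGTT, the KLF word CCACACCC, the SOX word AACAAAG, the PITX word TAATCC and the p63 double word, a pair of CATG words 6 bases apart, occurred in 0 of the 10. In all promoters their shares were 0.134%, 3.28%, 5.20%, 6.36% and 0.373%. The TP63 window lies at the upstream start of the gene, and the deposited values sum over all exons, so the shorter form transcribed from an internal start, which predominates in basal cells, was not measured apart.

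By the deposited exon positions on GRCh38, TP63 spans chromosome 3 from 189631416 to 189897279 and SOX2 the same chromosome from 181711924 to 181714436. KLF5 lies on chromosome 13 (73054976 to 73077542), KLF4 on 9 (107484852 to 107490482), GRHL3 on 1 (24319322 to 24364482) and OVOL1 on 11 (65787022 to 65797219). TFAP2A lies on chromosome 6 (10393186 to 10419659), ZNF750 on 17 (82829435 to 82840578), PITX1 on 5 (135027735 to 135034813) and GRHL2 on 8 (101492432 to 101669726). Values sum over exons, UTRs included. Whether strand was used in counting is not given in the sources used here, so reads from overlapping genes may be shared. This touches OVOL1 most, of whose 3849 exon bases 1044 (27.1%) are shared with RP11-770G2.5 on the opposite strand. TFAP2A shares 438 bases with TFAP2A-AS1, PITX1 293 with CTC-276P9.4 and GRHL2 50 with KB-1562D12.1, each on the opposite strand.

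Among KYSE150 controls, TP63 was the most abundant of the 10, at 15.4 ± 0.863 RPKM (SD, n = 3). KLF5 (10.7 ± 1.05), GRHL2 (9.79 ± 0.626) and TFAP2A (9.26 ± 0.517) followed, with ranges that overlapped from each to the next. PITX1 stood at 4.47 ± 0.788 and KLF4 at 1.38 ± 0.0994, each apart from its neighbours. OVOL1 (0.247 ± 0.0602), SOX2 (0.160 ± 0.0909), GRHL3 (0.108 ± 0.0133) and ZNF750 (0.0424 ± 0.00442) rested on 3 to 25 reads in a library. The first 3 of these overlapped from each to the next.

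KYSE510 controls had another order, with KLF5 first at 31.2 ± 4.003 RPKM and TP63 second at 19.0 ± 0.504, without overlap. GRHL2 (10.6 ± 0.850), SOX2 (8.80 ± 0.928), TFAP2A (8.14 ± 0.803) and PITX1 (7.02 ± 0.619) formed a middle group in which each overlapped the next. KLF4 (1.06 ± 0.295), GRHL3 (1.01 ± 0.336) and OVOL1 (0.779 ± 0.0457) overlapped likewise, and ZNF750 was lowest at 0.152 ± 0.109. SOX2 thus ranked 4 in KYSE510 and 8 in KYSE150. After silencing, TP63 and KLF5 kept ranks 1 and 2 in KYSE150 and KLF5 and TP63 ranks 1 and 2 in KYSE510.

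**Figure D1:**
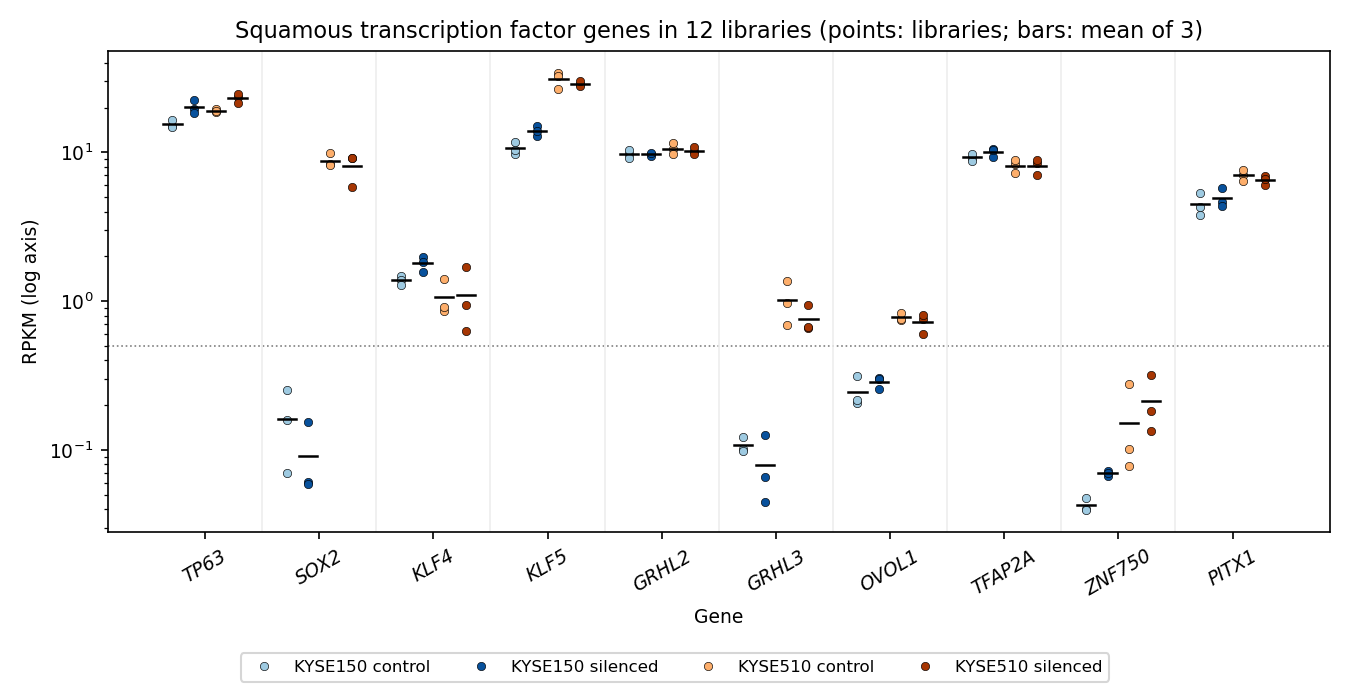
RPKM (log axis) of the 10 genes in the 12 libraries; points are libraries, bars the mean of 3, and the dotted line the level of 0.5 RPKM used to choose genes for testing. TP63, KLF5, GRHL2, TFAP2A and PITX1 lie above 3 RPKM in every library, SOX2 lies above 5 RPKM in KYSE510 and below 0.3 in KYSE150, and ZNF750 lies below the line throughout.

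Differences were tested with limma on log2(RPKM + 0.5), which understates the change of low genes, and p-values were adjusted by Benjamini-Hochberg over 17823 genes. Those genes had at least 0.5 RPKM in at least 3 libraries. ZNF750 did not reach this and was not tested, and SOX2, GRHL3 and OVOL1 reached it through KYSE510 alone, so their lines had to differ. Between control lines, 62.0% of all genes passed an adjusted p of 0.05 and 28.3% were higher in KYSE510. Their values are therefore given with no test of the lines. Of the other 6 genes 3 passed, all higher in KYSE510.

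KLF5, the Kruppel-like factor that promotes growth of basal cells, measured 9.78, 10.4 and 11.8 RPKM in KYSE150 controls and 26.7, 34.4 and 32.5 in KYSE510 controls. Every KYSE510 control lay above every KYSE150 control, with a ratio of means of 2.92 and a log2 difference of 1.501 (SE 0.105, limma adjusted p = 2.85e-07). PITX1 measured 4.29, 3.79 and 5.33 RPKM against 7.03, 6.40 and 7.64, again without overlap (log2 difference 0.61, SE 0.128, limma adjusted p = 0.00154). TP63 differed less, 15.0, 14.9 and 16.4 RPKM against 19.6, 18.6 and 18.9, with a ratio of 1.23 (log2 difference 0.30, SE 0.0859, limma adjusted p = 0.0107).

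SOX2 measured 0.159, 0.252 and 0.0701 RPKM in KYSE150 controls, from 4 to 13 reads, and 8.32, 9.87 and 8.22 in KYSE510 controls. The ratio of means was 54.9 and the log2 difference 3.82. GRHL3, the grainyhead factor of barrier formation, stood at 0.101, 0.0989 and 0.123 RPKM against 0.696, 1.37 and 0.978, a ratio of 9.41. OVOL1 stood at 0.207, 0.316 and 0.217 RPKM against 0.745, 0.761 and 0.831, a ratio of 3.15. None of these 3 genes overlapped between the control lines, which the filter they passed through KYSE510 alone made likely. The share of all genes without such overlap was not counted, which also limits the same statement for KLF5 and PITX1. Differences between the lines were common by another measure, with 62.0% of all genes passing the test.

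GRHL2, KLF4 and TFAP2A did not pass between the control lines. GRHL2 measured 9.69, 10.5 and 9.22 RPKM in KYSE150 controls and 10.5, 9.81 and 11.5 in KYSE510 controls, a log2 difference of 0.11 with a 95% interval of -0.06 to 0.28. KLF4 was 1.47, 1.40 and 1.28 RPKM against 0.863, 0.919 and 1.40 (log2 difference -0.28, interval -0.75 to 0.18). TFAP2A was 9.23, 8.76 and 9.79 RPKM against 8.32, 7.26 and 8.83 (-0.18, interval -0.40 to 0.04). The ranges of the lines overlapped for all 3.

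With HCP5 silencing, TP63 was the only gene of the 10 that passed the test, and only for the mean of both lines. It measured 15.0, 14.9 and 16.4 RPKM in KYSE150 controls and 19.5, 18.4 and 22.5 in the silenced libraries, then 19.6, 18.6 and 18.9 against 23.4, 21.4 and 24.6 in KYSE510. Every silenced library lay above every control of its line, in 6 of 6 same-numbered pairs. The means were 1.31 times higher in KYSE150 and 1.22 times in KYSE510. In bulk RNA, more cells of a kind and more RNA per cell cannot be told apart.

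As the mean of both lines, TP63 rose by 0.32 on the log2 scale (SE 0.0608, 95% interval 0.19 to 0.46, limma adjusted p = 0.0483). Over all genes 0.539% passed this contrast and 0.359% were higher in silenced libraries. Same-numbered libraries deviated together, though the labels state no pairing. With the replicate number as a block the limma adjusted p was 0.0161 (2.74% of genes passed). The adjusted p ran from 0.00331 to 0.137 over 21 alternatives and was under 0.05 in 1 of the 12 fits with a library omitted, that without KYSE150 control replicate 3 (0.0382).

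Taken line by line, 0 of the 9 genes passed in KYSE150 and 0 in KYSE510, where 0.499% and 0.0393% of all genes did. At an unadjusted p under 0.05 there were 2 of the 9 in KYSE150, TP63 and KLF5, where 18.1% of all genes reached that level (13.3% higher). In KYSE510 there was 1 of the 9, TP63, where 6.35% did (2.98% higher). The difference for TP63 was 0.37 in KYSE150 (SE 0.0859, adjusted p = 0.0836, limma) and 0.27 in KYSE510 (adjusted p = 0.494). With the replicate block TP63 passed in KYSE150 (adjusted p = 0.0254, 6.70% of all genes passing) and not in KYSE510 (0.138, 0.112% passing). It also passed in KYSE150 in 1 of the 12 fits with a library omitted, that without control replicate 3 (0.0362). That fit keeps the high silenced replicate 3, and 1287 of 17823 genes passed in it. Over the 12 fits the adjusted p of TP63 in KYSE150 reached 0.284. On recovered reads with voom 0 of the 9 passed in either line. With voom and the block TP63 and KLF5 passed in KYSE150 (adjusted p = 0.0239 and 0.0254), where 2706 of 17823 genes did. In KYSE510 TP63 passed (0.0291), where 485 of 17823 genes did. The change differed between lines by -0.10 (limma adjusted p = 0.712, interval -0.36 to 0.17).

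**Figure D2:**
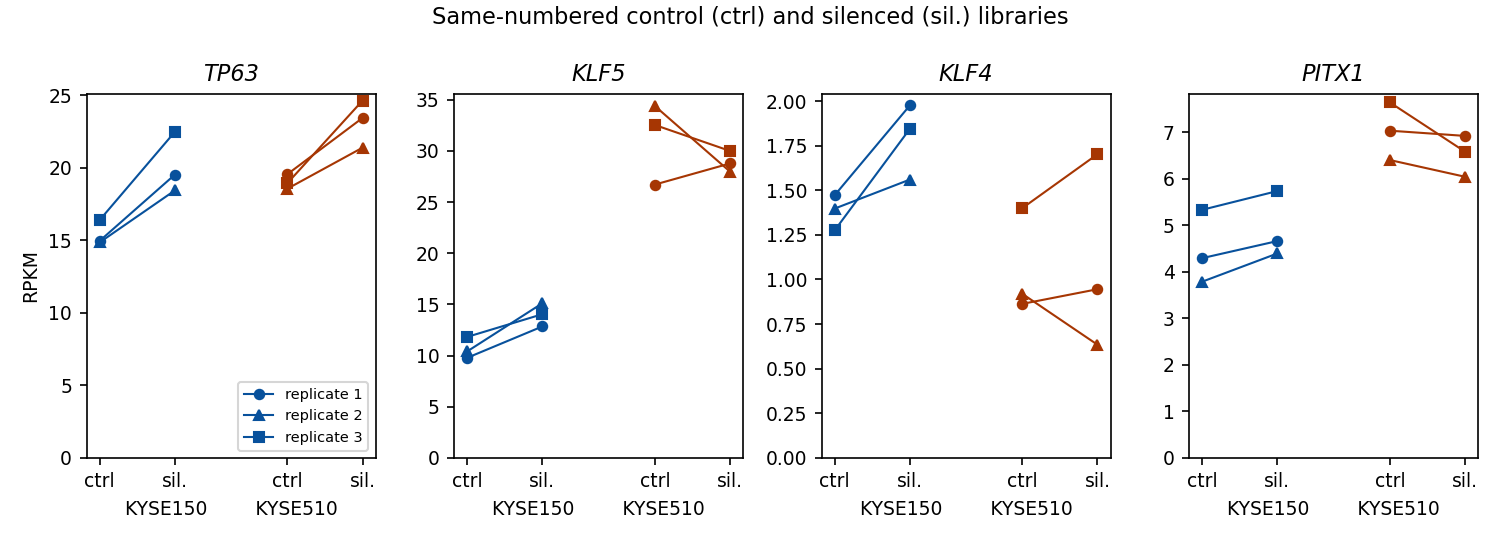
RPKM of TP63, KLF5, KLF4 and PITX1 in control (ctrl) and silenced (sil.) libraries; lines join libraries of the same number, and the axes start at 0. All 6 TP63 lines and all 3 KYSE150 lines of each gene go up, while KLF5, KLF4 and PITX1 go up in 1, 2 and 0 of the 3 KYSE510 pairs.

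KLF5 measured 9.78, 10.4 and 11.8 RPKM in KYSE150 controls and 12.8, 15.1 and 14.0 in the silenced libraries. The groups did not overlap, the ratio of means was 1.31, and the log2 change was 0.38 (SE 0.105, limma adjusted p = 0.124). Over the 12 fits with a library omitted the limma adjusted p ran from 0.0415 to 0.355. It was under 0.05 in 1 of them, that without KYSE150 control replicate 3, in which 1287 of 17823 genes passed. In KYSE510 KLF5 measured 26.7, 34.4 and 32.5 RPKM against 28.8, 28.0 and 30.002, overlapping groups with a change of -0.10 (limma adjusted p = 0.947). The difference between lines was -0.48 (SE 0.149, interval -0.80 to -0.15), with an unadjusted p of 0.00811 and a limma adjusted p of 0.394. In that contrast 0 of the 9 genes and 0.0% of all genes passed, and at an unadjusted p under 0.05 there were 1 of the 9 and 12.2% of all genes (2181). With the block 0 genes passed as well (4610 at an unadjusted p under 0.05), by voom 0, and by voom with the block 993 genes and 0 of the 9.

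KLF4 measured 1.47, 1.40 and 1.28 RPKM in KYSE150 controls and 1.98, 1.56 and 1.84 after silencing. These did not overlap, with a log2 change of 0.28 (SE 0.212, interval -0.18 to 0.75, limma adjusted p = 0.492). In KYSE510 the values were 0.863, 0.919 and 1.40 RPKM against 0.945, 0.634 and 1.70, with overlap and a change of -0.01 whose sign turned under other scalings. Replicate 3 was the highest for KLF4 in both KYSE510 groups.

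Silenced libraries all above controls were thus seen for TP63, KLF5 and KLF4 in KYSE150, 3 of the 9 genes tested where 13.7% of all genes showed it. In KYSE510 TP63 alone showed it, where 5.22% of all genes did, and TP63 was also the only one to show it in both lines, as 1.33% of all genes did. The median of all genes moved by 0.08 in KYSE150, where silenced libraries were the deeper ones, and by -0.02 in KYSE510. Centring each library on its median turned the former into -0.05. Relative to the median of all genes, TP63 stood 0.29 higher in KYSE150 and 0.30 higher in KYSE510, and KLF5 0.29 higher and -0.08. The part of depth in these values was not tested beyond this scaling.

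**Figure D3:**
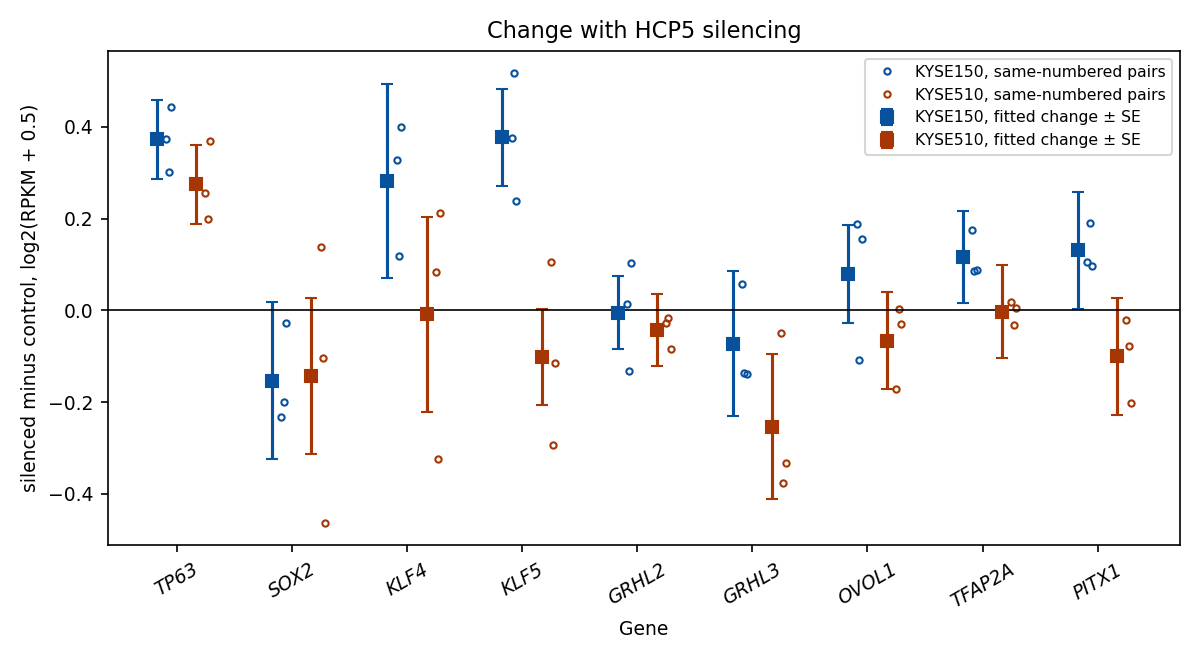
Silenced minus control on the log2(RPKM + 0.5) scale for the 9 genes tested; squares are fitted changes with their standard error and open circles are same-numbered pairs. TP63 lies at 0.37 and 0.27 with all 6 circles above 0, KLF5 at 0.38 and -0.10, and GRHL3 at -0.07 and -0.25.

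SOX2 measured 8.32, 9.87 and 8.22 RPKM in KYSE510 controls and 9.21, 9.16 and 5.82 after silencing. The groups overlapped, the silenced value was lower in 2 of 3 pairs, and the change of -0.14 (interval -0.52 to 0.23) became 0.06 without silenced replicate 3. In KYSE150 SOX2 stood at 0.159, 0.252 and 0.0701 RPKM against 0.0606, 0.155 and 0.0590, lower in 3 of 3 pairs (ratios 0.381, 0.616 and 0.842) with overlapping ranges. These values rest on 4 to 13 reads, and the change of -0.15 had an interval of -0.53 to 0.22.

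GRHL2 measured 9.69, 10.5 and 9.22 RPKM in KYSE150 controls against 9.78, 9.50 and 9.94, and 10.5, 9.81 and 11.5 against 10.3, 9.69 and 10.8 in KYSE510. Its intervals were the narrowest of the 9 tested, -0.18 to 0.17 in KYSE150 and -0.22 to 0.13 in KYSE510. GRHL3 measured 0.696, 1.37 and 0.978 RPKM in KYSE510 controls and 0.656, 0.938 and 0.673 after silencing, lower in 3 of 3 pairs but overlapping (log2 change -0.25, interval -0.60 to 0.10, limma adjusted p = 0.9001). In KYSE150 it had 5 to 13 reads, at 0.101, 0.0989 and 0.123 RPKM against 0.126, 0.0450 and 0.0659.

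OVOL1, the repressor of mesenchymal genes, measured 0.207, 0.316 and 0.217 RPKM in KYSE150 controls against 0.306, 0.258 and 0.299. In KYSE510 it measured 0.745, 0.761 and 0.831 RPKM against 0.606, 0.763 and 0.804. Control and silenced ranges overlapped in both lines, with changes of 0.08 (interval -0.16 to 0.31) and -0.07 (interval -0.30 to 0.17). TFAP2A measured 9.23, 8.76 and 9.79 RPKM against 10.5, 9.33 and 10.4 in KYSE150, higher in 3 of 3 pairs with overlapping ranges and a change of 0.12 (interval -0.11 to 0.34). In KYSE510 it measured 8.32, 7.26 and 8.83 RPKM against 8.44, 7.09 and 8.87, and the change was -0.0026 with an interval of -0.22 to 0.22. The small changes of OVOL1 and TFAP2A turned sign under some scalings.

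PITX1 measured 4.29, 3.79 and 5.33 RPKM in KYSE150 controls against 4.66, 4.39 and 5.74, higher in 3 of 3 pairs. In KYSE510 it measured 7.03, 6.40 and 7.64 RPKM against 6.92, 6.04 and 6.58, lower in 3 of 3 pairs. The ranges overlapped in both lines, with changes of 0.13 (interval -0.15 to 0.41) and -0.10 (interval -0.38 to 0.18). Opposite directions of this kind in all pairs were seen for 7.79% of all genes tested.

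ZNF750, the inducer of late differentiation, was nearly silent in KYSE150, with 3 to 4 reads in each control (0.0403, 0.0394 and 0.0475 RPKM) and 7 in each silenced library (0.0717, 0.0668 and 0.0699 RPKM). The groups did not overlap, but the controls lie at or next to the floor of 3 reads and no fold is given. In KYSE510 it stood at 0.101, 0.277 and 0.0783 RPKM against 0.135, 0.319 and 0.184, from 8 to 26 reads, higher in 3 of 3 pairs with overlapping ranges.

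Among 22 basal and TP63-linked genes, which include hemidesmosome, laminin and basal keratin genes, 1 rose in each line and 2 in the mean of the lines by limma. Over all genes 0.499% passed in KYSE150, 0.0393% in KYSE510 and 0.539% in the mean. This list, like those that follow, was written with earlier results of these data known, so its counts are descriptive and not independent of the data. COL17A1, a hemidesmosome collagen, measured 53.7, 49.0 and 66.2 RPKM in KYSE150 controls and 94.3, 79.2 and 96.8 after silencing. In KYSE510 it measured 4.25, 4.30 and 4.12 RPKM against 7.44, 7.94 and 9.65. It passed in both lines (0.68, adjusted p = 0.0491, and 0.90, adjusted p = 0.0481, limma), close to the threshold. In KYSE150 0 of the 22 passed with a pseudocount of 0.1, without the filter, with centring, with eBayes without trend and with 6 libraries alone. In KYSE510 0 passed with a pseudocount of 0.1 or 1, with eBayes without trend and with 6 libraries alone. When a library was left out, the listed genes passing numbered 0 to 3 for KYSE150 and 0 to 1 for KYSE510, highest in both without KYSE150 control replicate 3. CLCA2, a chloride channel regulator induced by p53 family members, measured 2.78, 4.51 and 4.23 RPKM in KYSE510 controls and 6.92, 8.95 and 7.44 after silencing, and 0.0217 to 0.0444 against 0.118 to 0.297 in KYSE150. The KYSE150 control values rest on 2 to 4 reads in a library, at or next to the floor of 3 reads, and the silenced ones on 15 to 36. Its groups did not overlap in either line, and CLCA2 rose by 0.65 in the mean of the lines (limma adjusted p = 0.0365).

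Most differences of the basal list lay above 0. In KYSE150 19 of 22 did, with a median of 0.41 against 0.08 over all genes, and in KYSE510 21 of 22, with a median of 0.23 against -0.02. With the replicate block 13 of the 22 rose and 1 fell in KYSE150, and 3 rose in KYSE510. In the mean of the lines 10 rose with the block. These counts stand beside the 6.70%, 0.112% and 2.74% of all genes given above. KRT14, a basal keratin and long-known target of p63, measured 28.5, 23.0 and 81.2 RPKM in KYSE150 controls and 127, 91.2 and 369 after silencing, then 6.78, 4.87 and 5.13 against 14.5, 16.8 and 19.8 in KYSE510. Neither comparison of KRT14 overlapped, and it passed in both lines with the block (adjusted p = 0.00793 and 0.0395) but not without it (0.0964 and 0.560).

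**Figure D4:**
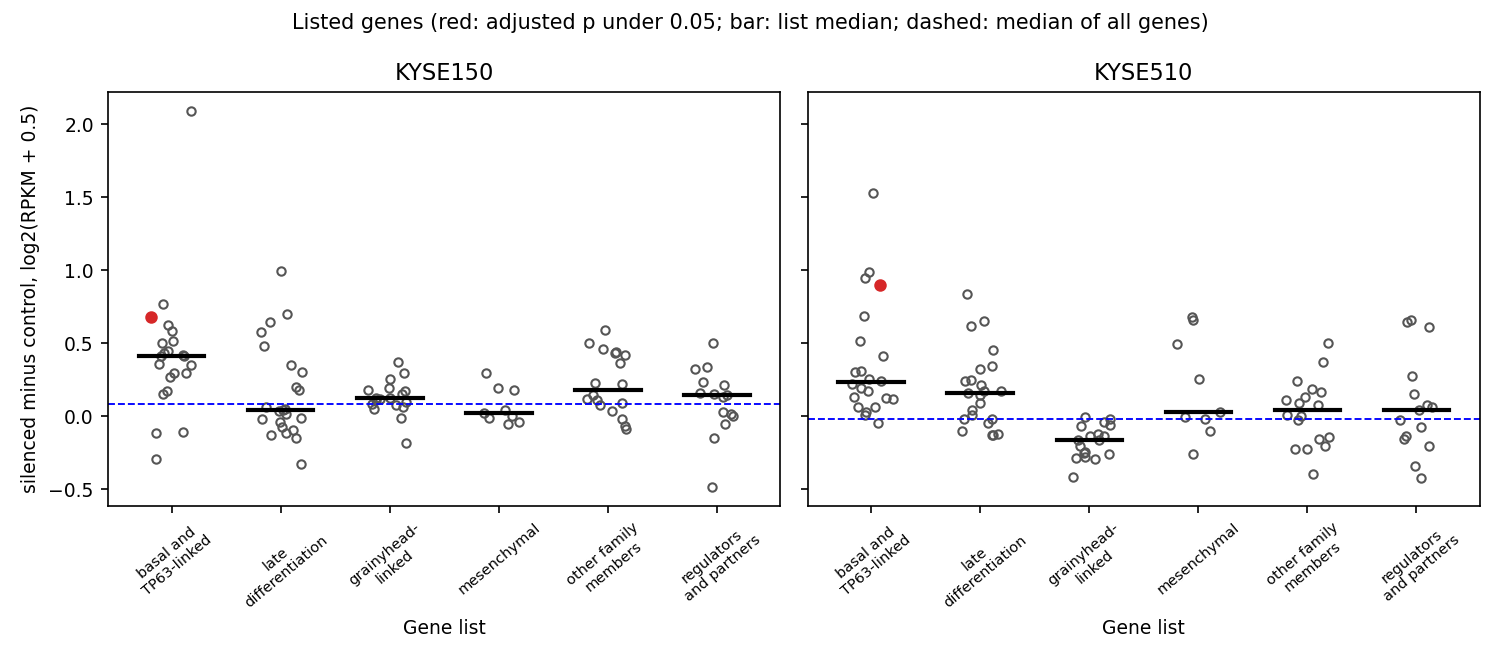
Silenced minus control on the log2(RPKM + 0.5) scale for the tested genes of 6 lists in each line; circles are genes, filled red where the adjusted p was under 0.05, black bars are list medians and the dashed line is the median of all genes. Basal and TP63-linked genes have medians of 0.41 in KYSE150 and 0.23 in KYSE510, and the red point in each line is COL17A1.

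Late squamous differentiation genes, which ZNF750, KLF4 and GRHL3 are known to switch on, had 23 of 36 members tested, and 0 passed in either line by limma. At an unadjusted p under 0.05 there were 4 in KYSE150 and 3 in KYSE510, all higher. These counts, like those of the lists that follow, stand beside the 18.1% and 6.35% of all genes at that level, and those for the mean of the lines with the block beside 2.74%. With the block 3 rose in KYSE150, 0 in KYSE510 and 2 (LYPD3 and ECM1) in the mean. Their medians were 0.04 in KYSE150, which turned to -0.09 on centring, and 0.16 in KYSE510. Grainyhead-linked epithelial genes were all tested, 18 in number, and 0 passed in either line by limma, 0 with the block, in the mean as well, and 0 by voom. At an unadjusted p under 0.05 they numbered 0 in KYSE150 and 2, both lower, in KYSE510. In KYSE510 all 18 lay below 0 (median -0.16), and 16 did so after centring or quantile normalization and 15 by voom. In KYSE150 16 lay above 0, and 7 did so after centring. Mesenchymal genes, which OVOL1 and the grainyhead factors are known to hold down, had 9 of 11 tested. In either line 0 passed, with or without the block. At an unadjusted p under 0.05 there were 0 in KYSE150 and 4 in KYSE510. All 4 were higher after silencing, where 2.98% of all genes were higher at that level. Of the 9, 5 lay above 0 in KYSE510 and 4 below (median 0.03). In the mean of the lines 2 rose with the block, FN1 (adjusted p = 0.0462, limma) and MMP2 (0.0401).

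Other members of the same families, 18 of 23 tested, had 0 passing in either line by limma. In KYSE150 6 had an unadjusted p under 0.05, all higher, and 3 rose with the block. In KYSE510 2 were higher and 1 lower at that level, and 0 passed with the block. In the mean 2 rose with the block, TP73 (adjusted p = 0.0286, limma) and KLF13 (0.0272). Other squamous regulators and partners, 15 of 20 tested, had 0 passing in either line, with or without the block. At an unadjusted p under 0.05, 2 were higher and 1 lower in KYSE150, and 3 were higher in KYSE510. In the mean 1 rose with the block, EHF (adjusted p = 0.0276, limma). Squamous cell markers, which share KRT5, KRT14 and S100A2 with the basal list, had 10 of 11 tested and 0 passing. All 10 lay above 0 in KYSE150 (median 0.53), where 9 rose with the block and 4 had an unadjusted p under 0.05. In KYSE510 9 lay above 0 (median 0.19), 1 rose with the block and 2 had an unadjusted p under 0.05, both higher. In the mean 6 rose with the block.

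OVOL1 and ZNF750, with no group mean of at least 1 RPKM, were left out of the search that follows. To ask which genes varied most like each of the other factors, Pearson r was computed over the 12 libraries after subtracting each line's mean. The search ran among 14014 genes with a mean of at least 1 RPKM. Such values share library depth and the treatment itself, and are given as a description. PRRG4 (r = 0.96) and KRT14 (0.96) were most like TP63. PRRG4, a membrane protein with a Gla domain, measured 4.21, 3.79 and 4.43 RPKM in KYSE150 controls and 7.03, 6.86 and 9.42 after silencing, without overlap. In KYSE510 PRRG4 measured 1.84, 1.73 and 2.28 RPKM against 3.32, 2.89 and 3.20, again without overlap (0.70 in the mean of the lines, limma adjusted p = 0.00631). PRRG4 was picked for its likeness to TP63, which was itself higher in every silenced library. Its separation of silenced from control libraries was therefore likely from the pick and is not a separate result. Of the 22 basal genes 7 had r of at least 0.8 with TP63 (31.8%), against 2.38% of all genes compared, and their median r was 0.71 against 0.18. Most of these genes rose with silencing, as TP63 did, and r includes the treatment. The comparison therefore restates that rise and is not a separate result.

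TYMSOS and PCBP1 were most like KLF5, each with r = 0.98, ITCH and ARHGEF7 most like KLF4 (0.95 and 0.94) and FSTL3 and CSRP1 most like TFAP2A (both 0.96). AC092171.4 and POLM were most like PITX1 (both 0.96), LRRC37A4P and AC069277.2 most like SOX2 (both 0.91), ZNF28 and SUOX most like GRHL3 (both 0.92) and LINC00342 and PTPRJ most like GRHL2 (0.91 and 0.84). ZNF28 was at 0 in KYSE150 controls and at most 0.00637 RPKM after silencing there, so its likeness to GRHL3 rests on KYSE510 libraries. Among the 9 genes themselves, KLF4 and TFAP2A (0.77) and TFAP2A and PITX1 (0.72) varied most alike. SOX2 ran against TFAP2A (-0.76) and KLF4 (-0.71), and TP63 had 0.46 with KLF5 and -0.61 with SOX2. In KYSE150 SOX2 rested on 4 to 13 reads in a library. In KYSE510 it was lowest in silenced replicate 3 (5.82 RPKM), the library where TFAP2A, KLF4 and TP63 were highest. How far these r values rest on that library was not tested.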

How the data were processed

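Gene RPKM of 12 RNA-seq libraries were analysed, 3 in each of 4 groups taken from the labels' cell line and treatment. Extraction used TRIzol and library preparation Illumina protocols, per the labels' protocols. The submitters' processing notes name GRCh38, HISAT2 and DESeq without versions, and annotation and strand use are not given in the sources used here. The authors deposited RPKM for 38516 genes with exon positions and length. RPKM times length gave whole reads (within 0.02) for 100% of values in 12 of 12 libraries, so the deposited RPKM are scaled to reads assigned to genes, 20035025 to 28202422 per library.

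The log2 of RPKM plus a pseudocount of 0.5 was fitted with limma 3.58.1 in R 4.3.3 (lmFit, eBayes with trend) as 4 group means over all libraries with 8 residual degrees of freedom. Tests were two-sided with Benjamini-Hochberg adjustment over 17823 genes with at least 0.5 RPKM in at least 3 libraries and a threshold of 0.05. Contrasts were silenced minus control in KYSE150, in KYSE510, their mean, their difference, and control KYSE510 against control KYSE150. Scripts were tested on simulated data. Alternatives were pseudocounts of 0.1 and 1, no filter, centring, quantile normalization, eBayes without trend, a replicate block (4 residual degrees of freedom), voom on recovered reads with and without the block, the 6 libraries of a comparison alone, and leaving out each library.

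Same-numbered control and silenced libraries had deviations from their group means that correlated at 0.147 to 0.415 in all 6 pairs, and other-numbered ones at -0.385 to 0.184. Numbers were therefore taken to pair libraries in the block fits, though the labels state no pairing. Deviations cancel out within a group, so positive same-numbered values push the others down. In KYSE150, control replicate 2 had 0.184 with silenced replicate 1 and 0.147 with silenced replicate 2. The members and lists were chosen with earlier results of these data known. Named genes are the 10 members and up to 3 genes of a list past the threshold in each silencing contrast. The 2 most higher in each control line at a mean of at least 1 RPKM are named too. So are the 2 genes most like each member with a group mean of at least 1 RPKM, and genes sharing exon bases with a member. KRT14 is named as most like TP63. Of the listed genes, 8 were not found in the table under the names used.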

Additional observations from a re-analysis of the deposited data

Results flagged for a closer look

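PITX1 had differences of opposite sign in the lines. Silenced libraries were higher than same-numbered controls in 3 of 3 KYSE150 pairs (ratios 1.09, 1.16 and 1.08) and lower in 3 of 3 KYSE510 pairs (0.984, 0.944 and 0.861). The changes were 0.13 and -0.10 on the log2 scale, and their difference was -0.23 (SE 0.181, 95% interval -0.63 to 0.17). The test of that difference did not pass (adjusted p = 0.559 by limma, and 0.164 with numbers as a block), and 7.79% of all genes tested showed the same opposite pattern.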

How the results depend on the processing

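The 31 differences followed for single members gave 660 values over the alternatives, of which 613 kept direction and side of the threshold, 26 had the opposite sign, 6 gained a call and 15 lost it. All 15 lost calls were of TP63 in the mean of the lines. In KYSE150 the number of members passing went from 0 to 1 with the replicate block and 2 on recovered reads by voom with the block, and ran from 0 to 2 when a library was left out, with 2 without KYSE150 control replicate 3. In KYSE510 it went from 0 to 1 by voom with the block. In the mean of the lines it went from 1 to 0 without the filter, with centring, with eBayes without trend and by voom, and ran from 0 to 1 when a library was left out, with 1 without KYSE150 control replicate 3 only. The replicate block changed no other call of a member. The fit of 6 libraries alone was not run for the mean and the difference.

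Opposite signs came from changes near 0, and the cause was not tested. KLF4 in KYSE510 was 0.00037 with a pseudocount of 1, 0.0171 with centring, 0.00656 with quantile normalization, 0.0181 by voom and 0.0943 by voom with the block. TFAP2A in KYSE510 was 0.0234, 0.0263, 0.0403 and 0.0408 under the last 4 of these, and in KYSE150 -0.0134 with centring. OVOL1 in KYSE150 was -0.0508 with centring and -0.0123 with quantile normalization. The TP63 difference between lines was 0.0578 with centring, 0.0496 by voom and 0.0517 by voom with the block. When a library was left out, SOX2 in KYSE510 ran from -0.247 to 0.0622, KLF4 in KYSE510 from -0.270 to 0.209, GRHL2 in KYSE150 from -0.0448 to 0.0418 and in KYSE510 from -0.0945 to 0.0149, OVOL1 in KYSE510 from -0.113 to 0.00542 and TFAP2A in KYSE510 from -0.0780 to 0.0875.

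Over the whole table, 89 genes passed in KYSE150 (67 higher and 22 lower), against 1194 with the block, 2706 by voom with the block, 161 by voom, 154 with quantile normalization (77 and 77), 116 with centring (54 and 62) and 7 with 6 libraries alone, and 15 to 1287 when a library was left out. In KYSE510 7 passed, against 20, 485, 24, 11, 8 and 0, with 3 at a pseudocount of 0.1, 44 without the filter and 2 to 7 when a library was left out. In the mean 96 passed, against 488 with the block, 1232 by voom with the block and 43 to 140 when a library was left out. For the difference 0 passed, against 10 without the filter, 993 by voom with the block and 0 to 4 when a library was left out (1 without KYSE150 control replicate 2 and 4 without KYSE150 control replicate 3). Genes below about 0.1 RPKM rest on few reads, which limits SOX2, GRHL3 and ZNF750 in KYSE150.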

Other observations

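Relatives and partners of these factors had other levels in the control lines as well. They are given with no test, since genes low in a line reached the filter through the other line. SOX4 averaged 4.95 RPKM in KYSE510 controls against 0.524 in KYSE150, and TP73, the relative of TP63, 1.43 against 0.209. SOX9 went the other way, 0.599 against 5.89 RPKM, and so did KLF6, 0.936 against 3.99 RPKM. Of the other regulators, the epithelial ETS factors EHF (5.53 against 0.104 RPKM) and ELF3 (38.2 against 3.77) were higher in KYSE510, and BNC1 (2.70 against 15.4) was higher in KYSE150.

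Columnar and glandular factors were mostly near 0, but FOXA1 averaged 9.26 RPKM in KYSE510 controls against 0.430 in KYSE150 and GATA6 2.55 against 0.882. Mesenchymal genes were divided between the lines. SPARC (29.5 against 0.0451 RPKM) and CDH2 (4.78 against 0.00953) were higher in KYSE510, and SNAI2 (3.37 against 19.4) and TWIST1 (0.00682 against 3.69) were higher in KYSE150. Among late differentiation genes SBSN (13.0 against 0.175 RPKM) was higher in KYSE510 and FLG (0.443 against 11.3) in KYSE150.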
